A study of Mus musculus with 22 samples.

Results

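The genes described here are 10 genes of the hepatic lipid droplet and of the nuclear receptor that drives fat storage, followed across the livers of 22 male mice. They were taken from the deposited non-normalized probe table by name, as every probe whose target was CIDEA, CIDEB, CIDEC, PPARG, G0S2, MOGAT1, PNPLA2, PNPLA3, DGAT2 or LPL, which gave 13 of 45281 probes. No other target name of the table pointed to any of them. Of the 10 genes, 8 had a probe that passed the detection filter (detection p under 0.05 on at least 5 arrays), and these 8 are among the 9881 genes tested. Mogat1 and Pnpla3 were detected on 0 of 22 arrays.

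All mice were C57BL/6J, an inbred strain, and were 29 weeks old. From 5 weeks of age their mothers ate either western diet (W) or a control diet low in fat (L), were mated after 6 weeks, and stayed on it through gestation and lactation. After weaning each son ate W or L for 24 weeks. In the group names, the opening letter stands for the dam's diet and the other for that of the son, so that LL (n = 6) had L throughout, LW (n = 5) had W only after weaning, WL (n = 5) had W only through the dam, and WW (n = 6) had both. No genetic change or further agent is named for any group, and the submitters had left out 1 experimental and 1 biological outlier. The labels give neither the litter of a mouse nor the make-up of the diets, and the p-values below treat each mouse as independent.

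A lipid droplet is a core of triglyceride under a single layer of phospholipid, coated with proteins that set how fast the fat is stored and released. In hepatocytes the last step of triglyceride synthesis feeds the droplet, CIDE proteins transfer lipid from small droplets to larger ones, and adipose triglyceride lipase, held back by G0S2, starts the breakdown. PPAR-gamma is the nuclear receptor that drives fat cell differentiation. It is scarce in lean mouse liver and is known to rise in fatty liver, where Cidea, Cidec, Mogat1 and Plin4 are among the genes it switches on.

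Values are log2 intensities after background correction and quantile normalization. An offset of 16 was added before the logarithm, so that a probe with no signal lies slightly above 4. Of the 8 genes tested, Cidea and Pparg rose in mice fed W when averaged over both dam diets. Cidec was highest in WW and was not called in any of the 7 comparisons. Cideb, Dgat2 and Pnpla2 differed little between groups. G0s2 had its highest mean in LL and was not called in any comparison, with intervals wider than theirs. Lpl was highest in WW, where 1 mouse stood above the rest.

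Signal and detection differed between arrays. The mean raw intensity ran from 151 (LL replicate 1) to 276 (WW replicate 6), and between 13285 and 15105 probes were detected. Spearman correlations of raw intensities within groups lay between 0.763 and 0.857. The arrays lay on 4 slides that the groups filled unevenly. Beyond the group means, the median F for slide over all genes was 2.04, where 0.826 is expected without a slide difference. The main fit had no term for slide. Slide 1 held 1 LL array (LL replicate 1), slide 3 held 1 LW array (LW replicate 5) and slide 4 held 1 WL array (WL replicate 5), so differences within those slides rest on 1 mouse on one side. Of 8 hepatocyte markers, 7 were detected on all 22 arrays, and Tat on 0.

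Pparg, the receptor itself, was the regulator in the set. The mouse gene is transcribed from alternative promoters, which give PPAR-gamma1 and the longer PPAR-gamma2, the form known from fat cells. Of its 3 probes, 1 was detected on all 22 arrays (probe 2320402), and the others on 1 array and on 0 arrays, so the values below are those of 1 probe. Which isoforms that probe reads was not determined here. Its level lay between 6.30 and 8.88 in LL, with a median of 7.996. In LW the values were 8.69, 8.68, 8.92, 8.48 and 9.14, within a narrow range. In WL they were 8.62, 8.87, 8.44, 8.34 and 6.66, the last being WL replicate 5. The 6 WW mice lay between 8.79 and 9.44, with a median of 9.24, and among the L-fed mice only LL replicate 3 (8.88) and WL replicate 2 (8.87) reached the WW range.

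The difference in Pparg between W-fed and L-fed sons was close to the same size under both dam diets. It was 0.96 ± 0.34 (log2 difference ± SE) in LW against LL, with 5 of 5 LW mice above the LL mean, and 1.02 ± 0.34 in WW against WL, with 6 of 6 WW mice above the WL mean, and 0.64 without WL replicate 5. Neither passed over all genes (limma adjusted p = 0.186 and 0.185). Averaged over dam diets the difference was 0.99 ± 0.24, a 1.98-fold higher level in W-fed sons (95% interval 1.40 to 2.81), and it passed (limma adjusted p = 0.0281). The interaction of dam and offspring diet was 0.05 ± 0.48 (95% interval -0.94 to 1.05), which does not show that the diet effects were alike.

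The dam's diet gave smaller values for Pparg. WL against LL was 0.37 ± 0.34 (limma adjusted p = 0.996) and WW against LW was 0.42 ± 0.34 (0.687), with an average of 0.39 ± 0.24 (limma adjusted p = 0.822). The order of the group means was LL (7.82 ± 0.86, SD), WL (8.19 ± 0.87), LW (8.78 ± 0.25) and WW (9.20 ± 0.26). No pair of neighbours in this order differed beyond its spread, and all neighbours overlapped. The call in the average was lost without LL replicate 5, LW replicate 5 or WW replicate 2 (limma adjusted p = 0.0524, 0.0514 and 0.052) and with no detection filter (0.0703), and the deposited normalized values gave 0.41 with the call kept. Within slides the difference between WW and WL was 0.51 on slide 2 and 2.60 on slide 4, where WL replicate 5 was the only WL mouse, and that between LW and LL was 2.38 on slide 1, where LL replicate 1 was the only LL mouse, and 0.72 on slide 3.

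**Figure D1:**
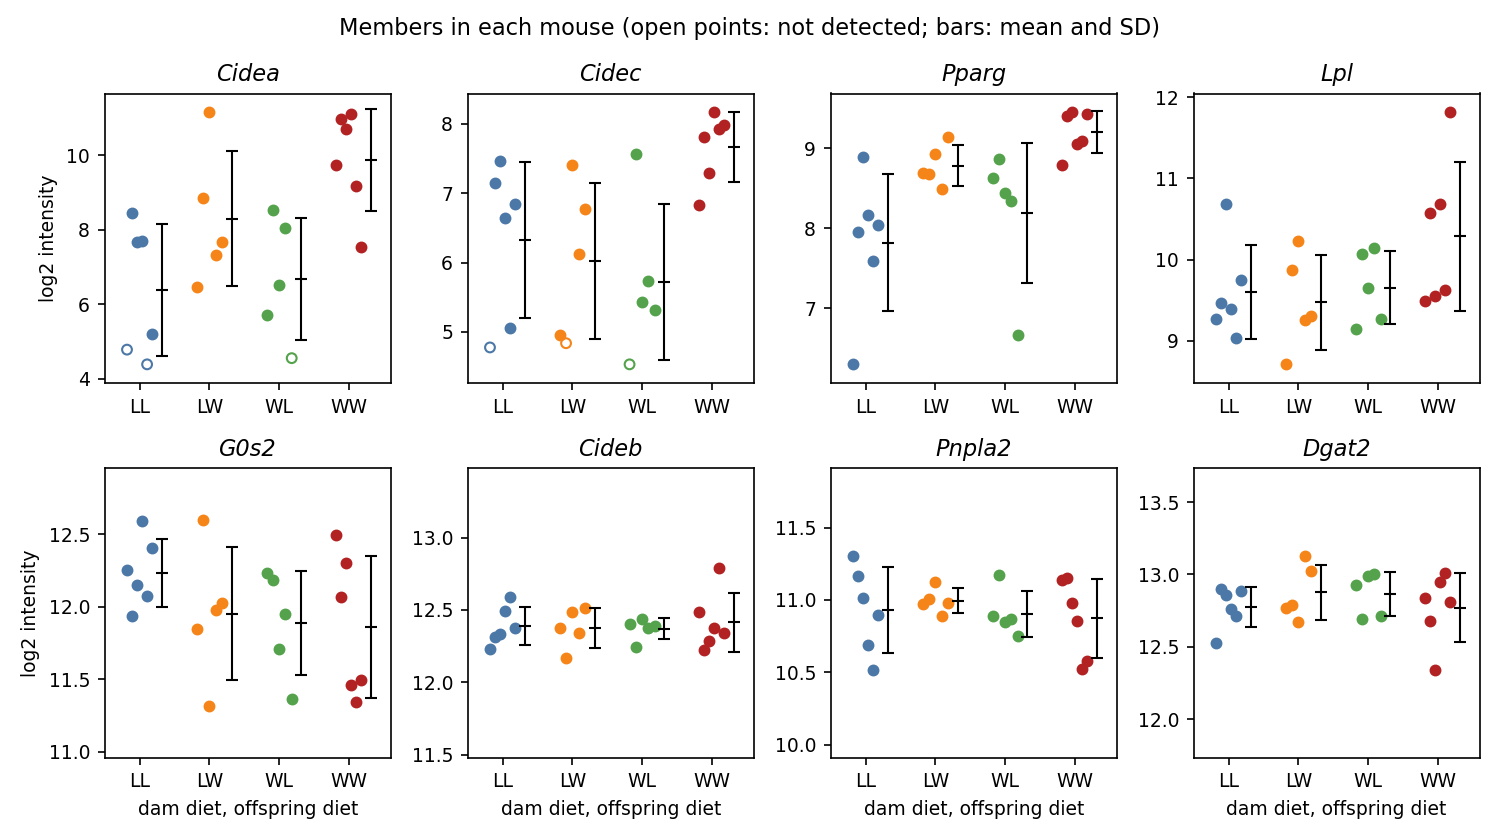
The 8 tested genes, log2 intensity of each mouse by group (LL and WW, n = 6; LW and WL, n = 5), with group mean and SD as bars and open points for mice in which the probe was not detected. Each panel has its own vertical scale. Cidea and Pparg have higher means in W-fed sons under both dam diets, and Cidec lies at 6.83 to 8.17 in WW. The groups overlap in every panel.

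The Pparg windows upstream of the annotated starts are shown because the gene is read from several promoters and which of them the probe follows was not determined. The sequences are from RefSeq (GRCm38.p6), 250 bases 5′ of each of 3 annotated starts, on the plus strand of chromosome 6. Capitals mark AGGTCA, the hexamer that nuclear receptors bind, and the C/EBP core TTGCNNAA, searched on both strands.
Pparg window 1, chr6:115360894-115361143: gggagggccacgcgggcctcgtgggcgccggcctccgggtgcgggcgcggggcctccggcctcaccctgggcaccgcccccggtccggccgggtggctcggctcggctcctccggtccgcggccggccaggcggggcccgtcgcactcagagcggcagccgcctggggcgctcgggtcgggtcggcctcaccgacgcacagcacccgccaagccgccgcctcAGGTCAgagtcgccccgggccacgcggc
Pparg window 2, chr6:115362099-115362348: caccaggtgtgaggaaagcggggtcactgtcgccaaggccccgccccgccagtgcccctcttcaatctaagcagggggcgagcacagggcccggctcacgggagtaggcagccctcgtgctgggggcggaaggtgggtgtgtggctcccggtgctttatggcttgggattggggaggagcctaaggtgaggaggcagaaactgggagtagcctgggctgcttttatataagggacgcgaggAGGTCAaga
Pparg window 3, chr6:115421816-115422065: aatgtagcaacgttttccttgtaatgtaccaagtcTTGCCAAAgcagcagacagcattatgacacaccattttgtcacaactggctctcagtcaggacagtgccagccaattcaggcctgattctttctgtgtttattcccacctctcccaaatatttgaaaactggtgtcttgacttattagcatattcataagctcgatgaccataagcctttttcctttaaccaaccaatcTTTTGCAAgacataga
The hexamer was found once in window 1, starting 28 bases before the transcript's start, and once in window 2, starting 9 bases before it. The C/EBP core was found 2 times in window 3, starting 215 and 16 bases before the start. The G and C content was 82.4%, 63.6% and 40.8% in windows 1, 2 and 3. Searched over windows of 300 bases that also take in 50 bases after the start, the hexamer occurred in 16.3% of 32851 mouse promoter windows and the C/EBP core in 10.8%.

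Cidea and Cidec had the largest differences of the 8 genes in WW against WL. Both belong to the CIDE family, which gathers at the contact between droplets and moves lipid from the smaller to the larger one. Cidea is typical of brown fat and is low in lean liver, whereas Cidec, also called Fsp27, is typical of white fat. Their probes were near background in some mice: Cidea was detected in 4 of 6 LL, 5 of 5 LW, 4 of 5 WL and 6 of 6 WW mice, and Cidec in 5 of 6, 4 of 5, 4 of 5 and 6 of 6. Differences that reach background are compressed at the low end.

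Cidea lay between 4.38 and 8.45 in LL, with a median of 6.44. Its values in LW were 6.46, 8.84, 11.14, 7.32 and 7.68. In WL they were 5.71, 8.52, 6.51, 8.05 and 4.55. WW lay between 7.54 and 11.09 with a median of 10.22, and 5 of the 6 WW mice were above the LW mean. The lowest WW mouse, replicate 6, fell inside the ranges of both L-fed groups, so WW overlapped all the others.

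W-fed sons had the higher mean Cidea under both dam diets. LW against LL was 1.92 ± 0.86 (limma adjusted p = 0.283), with 5 of 5 LW mice above the LL mean, and WW against WL was 3.20 ± 0.86 (0.102), with 6 of 6 WW mice above the WL mean. The average over dam diets was 2.56 ± 0.61, a 5.89-fold higher level (95% interval 2.46 to 14.1), which passed (limma adjusted p = 0.0247). The interaction was 1.27 ± 1.22 and did not pass (limma adjusted p = 0.816). With the dam's diet alone, WL minus LL was 0.30 ± 0.86 and its sign turned with slide as a fixed block (-0.66), while WW minus LW was 1.57 ± 0.86 (limma adjusted p = 0.551) and the average 0.94 ± 0.61 (0.823).

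The group means of Cidea ran from LL (6.37 ± 1.77, SD) through WL (6.67 ± 1.64) and LW (8.29 ± 1.81) to WW (9.86 ± 1.37), and no neighbours in this order differed beyond their spread. The averaged call was lost without WL replicate 5 (limma adjusted p = 0.0623), without WW replicate 2 (0.0504), without LL replicate 1 and WL replicate 5 together (0.0637), with no detection filter (0.0681) and with the deposited normalized values (0.83, adjusted p = 0.0587). Within slides, WW exceeded WL by 3.78 on slide 2 and 3.80 on slide 4, whereas LW minus LL was 2.87 on slide 1 and -0.39 on slide 3.

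Cidec had another profile. Its level in LL lay between 4.78 and 7.47, with a median of 6.75. The LW values were 4.96, 4.84, 7.41, 6.13 and 6.77, and the WL values 4.53, 7.56, 5.43, 5.74 and 5.31. WW lay between 6.83 and 8.17, with a median of 7.87. The WW group thus had the highest median and was the tightest, while LL, LW and WL shared most of their range. LL replicates 2, 3 and 6, LW replicate 3 and WL replicate 2 lay inside the range of WW.

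In sons of low-fat dams, Cidec was -0.30 ± 0.52 in LW minus LL (limma adjusted p = 0.828), with 2 of 5 LW mice above the LL mean. In sons of W-fed dams the difference was 1.95 ± 0.52 (WW against WL, limma adjusted p = 0.102, 6 of 6 WW mice above the WL mean), a 3.87-fold higher level (95% interval 1.83 to 8.19). The difference between these differences, the interaction, was 2.25 ± 0.74 (unadjusted p = 0.00558), and it did not pass over all genes (limma adjusted p = 0.518). WW against LW, which holds the son's diet at W, was 1.65 ± 0.52 (limma adjusted p = 0.421, 6 of 6 WW mice above the LW mean), and WL against LL was -0.61 ± 0.52 (0.996). The averages were 0.83 ± 0.37 for the son's diet (limma adjusted p = 0.211) and 0.52 ± 0.37 for the dam's diet (0.828).

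In WW against WL, members that did not pass were called under some other processing. Of 12 alternatives other than leaving out 1 mouse, Cidec was called in 5, Cidea in 4 and Pparg in 2. With each mouse left out in turn, Cidec was called in 1 of 22 cases and Cidea in 0. With slide as a fixed block the differences were 2.58 for Cidec (limma adjusted p = 0.00663), 3.94 for Cidea (0.0116) and 1.40 for Pparg (0.032), so that 3 of the 8 genes passed there, where 3.2% of all genes did (316), and 0 without the block. The deposited normalized values also gave these 3 (limma adjusted p = 0.044, 0.0461 and 0.0488), where 1.27% of all genes passed (125), with smaller differences of 0.44, 1.37 and 0.51. Cidec passed as well with the 2 compared groups alone (limma adjusted p = 0.0461, with 0.395% of all genes passing) and without WL replicate 2, the WL mouse with the highest Cidec (limma adjusted p = 0.022, with 0.82% of all genes passing). In the order of group means, WL (5.72 ± 1.12, SD), LW (6.02 ± 1.12), LL (6.32 ± 1.13) and WW (7.67 ± 0.51), the step from LL to WW was 1.35 ± 0.50 and did not pass over all genes (limma adjusted p = 0.183).

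The upstream windows of Cidec are shown because its profile differed from that of Pparg, and RefSeq (GRCm38.p6) annotates 2 starts, both on the minus strand of chromosome 6. The letters read 5′ to 3′ on the gene's strand, and capitals mark the C/EBP core TTGCNNAA.
Cidec window 1, chr6:113435761-113436010: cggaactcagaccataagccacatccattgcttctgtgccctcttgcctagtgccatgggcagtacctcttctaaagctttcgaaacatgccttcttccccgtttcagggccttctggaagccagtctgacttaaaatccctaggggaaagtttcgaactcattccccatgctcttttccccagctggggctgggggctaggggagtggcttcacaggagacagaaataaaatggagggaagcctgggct
Cidec window 2, chr6:113434765-113435014: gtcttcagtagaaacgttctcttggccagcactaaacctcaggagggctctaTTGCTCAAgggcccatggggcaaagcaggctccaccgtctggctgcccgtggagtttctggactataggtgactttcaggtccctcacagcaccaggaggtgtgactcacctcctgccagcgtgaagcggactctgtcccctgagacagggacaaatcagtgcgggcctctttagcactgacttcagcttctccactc
The core was found once, in window 2, starting 198 bases before the start. Neither Cidec window held AGGTCA. The direct repeat of that hexamer with 1 base between the copies was in none of the 10 windows of the 7 genes searched. These did not include Cidea. Of all promoter windows, 0.0396% hold it. The TATA box (TATAAA), the CCAAT box, the GC box (GGGCGG) and the E-box (CACGTG) were searched as well and are not described here. These letters describe the windows only.

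Cideb, the third CIDE gene and the one typical of hepatocytes, where it also loads lipid onto VLDL, was detected on all arrays and lay between 12.17 and 12.79 over the 22 mice. Its averaged differences were 0.02 ± 0.08 for the son's diet (95% interval -0.14 to 0.17) and 0.01 ± 0.08 for the dam's diet (-0.15 to 0.17). The group means were 12.37 ± 0.07 (SD) in WL, 12.38 ± 0.14 in LW, 12.39 ± 0.13 in LL and 12.42 ± 0.20 in WW, an order in which no neighbours differed beyond their spread.

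Dgat2 and Mogat1 are enzymes of triglyceride synthesis. Dgat2 adds the third fatty acid, and Mogat1 makes diglyceride from monoglyceride. Dgat2 was detected on all arrays at 12.34 to 13.13, and its averaged differences were 0.00 ± 0.09 for the son's diet (95% interval -0.18 to 0.18) and -0.01 ± 0.09 for the dam's diet (-0.19 to 0.17). As a ratio of W-fed to L-fed sons, the first interval ran from 0.885 to 1.13. The group means were 12.77 ± 0.24 (SD) in WW, 12.77 ± 0.14 in LL, 12.87 ± 0.15 in WL and 12.88 ± 0.19 in LW, all overlapping. Mogat1 was at background in every mouse (4.20 to 4.59, lowest detection p 0.19), so these arrays give no measured level for it in any group.

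The breakdown side of the droplet is represented by a pair of patatin-like lipases and an inhibitor. Pnpla2, which encodes adipose triglyceride lipase, lay between 10.51 and 11.31, with averaged differences of 0.02 ± 0.10 for the son's diet (95% interval -0.19 to 0.22) and -0.07 ± 0.10 for the dam's diet (-0.28 to 0.13). The group means were 10.87 ± 0.27 (SD) in WW, 10.91 ± 0.16 in WL, 10.93 ± 0.30 in LL and 10.995 ± 0.085 in LW, all overlapping. Its slide means were 11.12, 10.99, 10.97 and 10.66 for slides 1 to 4, and its F for slide was 14.0, above that of 97.7% of genes. Pnpla3, a lipid droplet protein best known for its variant in human fatty liver, was at background in every mouse (4.26 to 4.53, lowest detection p 0.239).

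G0s2 encodes the protein that inhibits adipose triglyceride lipase. It lay between 11.94 and 12.59 in LL, with a median of 12.20, and between 11.34 and 12.50 in WW, with a median of 11.78. In LW the values were 11.84, 12.60, 11.32, 11.98 and 12.03, and in WL 12.23, 12.18, 11.71, 11.95 and 11.36, so all groups overlapped. The order of the means was WW (11.86 ± 0.49, SD), WL (11.89 ± 0.36), LW (11.95 ± 0.46) and LL (12.23 ± 0.24). LW minus LL was -0.28 ± 0.22 (limma adjusted p = 0.567), WW minus WL -0.03 ± 0.22 (0.97) and WL minus LL -0.35 ± 0.22 (0.996). The averages were -0.16 ± 0.16 for the son's diet (95% interval -0.48 to 0.17) and -0.22 ± 0.16 for the dam's diet (-0.54 to 0.10).

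Lpl encodes lipoprotein lipase, which frees fatty acids from circulating triglyceride. It is low in adult hepatocytes and is also made by macrophages. Of its 2 probes, 1 was detected on all arrays (probe 5360300) and the other on 0. LL lay between 9.04 and 10.69, with a median of 9.42. LW values were 8.71, 9.87, 10.22, 9.25 and 9.30, and WL values 9.14, 10.06, 9.65, 10.14 and 9.27. WW lay between 9.49 and 11.81, with a median of 10.10. The highest mouse of the study was WW replicate 6, followed by LL replicate 3, and all groups overlapped. The means ran from LW (9.47 ± 0.59, SD) through LL (9.60 ± 0.58) and WL (9.65 ± 0.45) to WW (10.29 ± 0.92), with no neighbours apart beyond their spread.

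WW against WL was 0.63 ± 0.36 for Lpl (limma adjusted p = 0.449), with 3 of 6 WW mice above the WL mean, and 0.33 without WW replicate 6. WW against LW was 0.81 ± 0.36 (limma adjusted p = 0.455), with 6 of 6 WW mice above the LW mean, and 0.51 without WW replicate 6. LW minus LL (-0.13 ± 0.36) and WL minus LL (0.06 ± 0.36) were near 0, and the latter changed sign with slide as a fixed block (-0.02). The interaction was 0.76 ± 0.51 (limma adjusted p = 0.721). The averages of 0.25 ± 0.25 for the son's diet (limma adjusted p = 0.616) and 0.44 ± 0.25 for the dam's diet (0.816) did not pass.

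Macrophage markers were read beside Lpl. The summed normalized intensity of the 9 markers was highest in WW replicate 6 (9570) and LL replicate 3 (7945), the mice with the highest Lpl, and ran from 3792 to 7945 in LL, 3487 to 4330 in LW, 3128 to 4684 in WL and 3794 to 9570 in WW. Gpnmb, a marker of lipid-laden macrophages, was 10.75 in WW replicate 6 and 9.58 in LL replicate 3, and Trem2 was 7.97 and 7.25, with WW replicate 4 at 7.30 between them. The markers did not all follow that order: Clec4f was highest in LL replicate 1 (10.97), Csf1r in LW replicate 1 (6.98) and Marco in WW replicate 5 (5.93). In WW against WL all 9 had a positive difference (median 0.40), among them Gpnmb at 2.03 ± 0.85 (limma adjusted p = 0.289), and by limma 0 passed, with 2 of 9 at an unadjusted p under 0.05. Their part in the Lpl, Cidec and Cidea values of WW was not tested. In a bulk sample fewer cells of a type and less RNA per cell cannot be told apart.

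**Figure D2:**
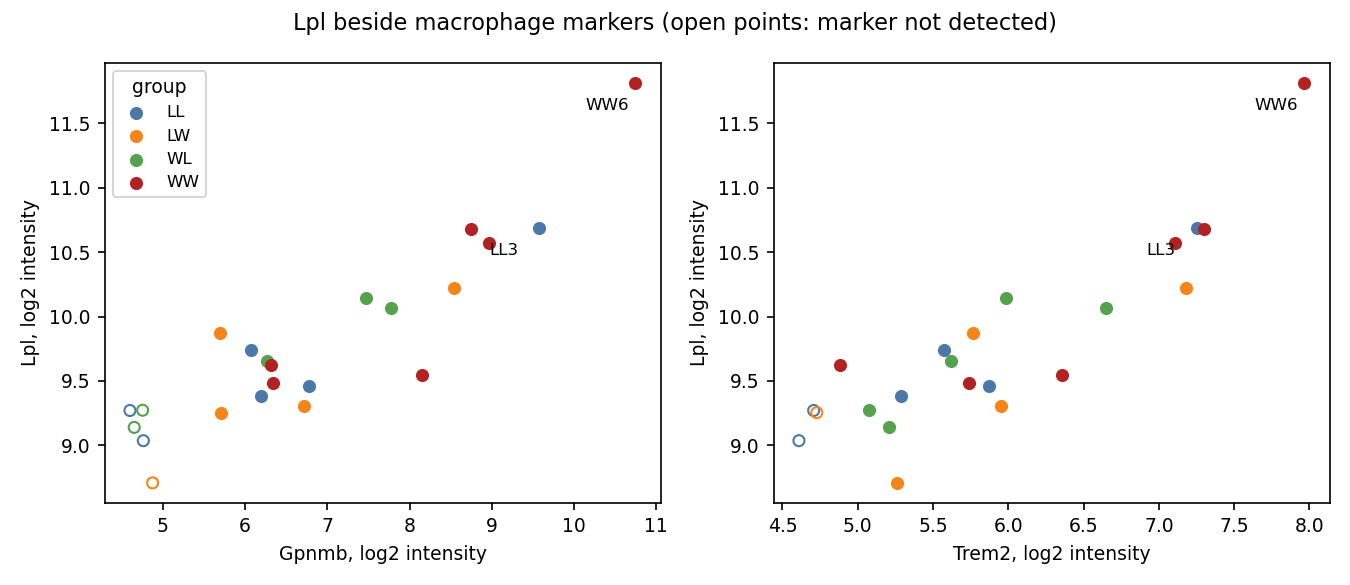
Lpl against Gpnmb (left) and Trem2 (right), log2 intensity in 22 mice coloured by group, with open points where the marker was not detected. WW replicate 6 (Lpl 11.81) and LL replicate 3 (10.69) lie at the upper right in both panels, and the mice in which Gpnmb was not detected lie at the low end of Lpl.

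Counted over the 8 tested genes, limma made few calls. In LW against LL 0 of 8 passed where 0.243% of all genes did (24 of 9881), and in WW against WL 0 of 8 passed where 0.476% did (47). At an unadjusted p under 0.05 these comparisons had 2 and 3 of the 8, and 1520 and 1361 of all genes. For WL against LL, WW against LW, the interaction and the average over the son's diets, limma called 0 of 8, and 0% of all genes. At an unadjusted p under 0.05 the last 4 had 468, 989, 790 and 582 of 9881 genes, and 0, 2, 1 and 0 of the 8. In the average over dam diets 2 of 8 passed (3 of 8, and 1981 or 20.05% of all genes, at an unadjusted p under 0.05), Cidea and Pparg, where 2.71% of all genes did (268, of them 151 higher and 117 lower). The median difference of the 8 there was 0.14, beside 0.00 for all genes. The members were chosen with earlier results of these data known, so these counts and medians are no test of the set against all genes. Each group serves in several of these comparisons, which are therefore not independent of each other.

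**Figure D3:**
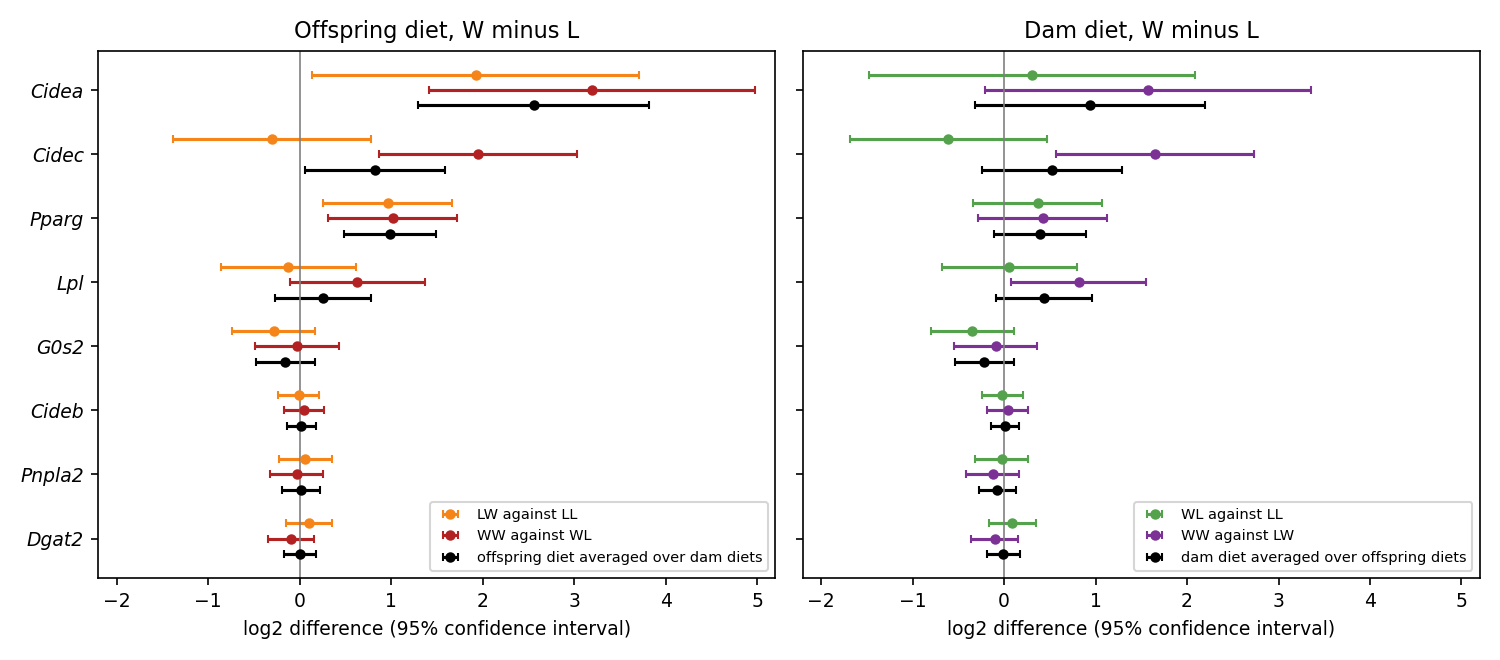
Differences of the 8 genes (log2, W minus L, with 95% intervals) for the son's diet (left) and the dam's diet (right), each within the other diet and averaged over it. Cidea and Pparg lie above 0 for the son's diet under both dam diets (averages 2.56 and 0.99), the interval of Cidec lies above 0 in WW against WL (1.95) with its point at -0.30 in LW against LL, and Cideb, Pnpla2 and Dgat2 lie near 0 throughout.

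The genes also differed in how much they varied among mice on the same diets. The SD within groups was 1.65 for Cidea, 0.99 for Cidec, 0.67 for Lpl and 0.64 for Pparg, each at least as high as in 98.5% of the 9881 genes, where the median SD was 0.26. G0s2 (0.40) was above 90.2% of genes, and Pnpla2 (0.23), Dgat2 (0.19) and Cideb (0.15) were below the median. Differences between groups made up 48.2% of the variance of Cidea, 47.4% of Pparg, 41.5% of Cidec and 22.1% of Lpl, and between 1.74% and 15.5% of the other genes. Group means take up some of the variance even where groups do not differ. No share over all genes is given beside these values. The 4 genes with the largest shares were also the 4 with the largest SD within groups.

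Mice with high Cidec for their group tended to be high in Cidea and Lpl. Each gene was taken as its deviation from the group mean over 22 mice, and the 7 relations with Cidec were tested by permutation of mice within groups and adjusted over the 7. Lpl gave r = 0.55 and rho = 0.59 (permutation, two-sided, p = 0.00333 and 0.00271, adjusted p = 0.0233 and 0.019). Cidea gave r = 0.61 and rho = 0.58 (permutation p = 0.0102 and 0.015, adjusted p = 0.0357 and 0.0526). Pparg gave r = 0.56 and rho = 0.51, with adjusted permutation p of 0.063 and 0.0709, and G0s2 gave r = -0.30. The 2 mice farthest out in Cidec were WL replicate 2 and LL replicate 1. Without them r was 0.56 for Lpl, 0.53 for Cidea (permutation adjusted p = 0.0776), 0.38 for Pparg and -0.47 for G0s2. The Cidea relation thus did not pass without those mice, with r at 0.53 beside 0.61.

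The same relations were looked at within slides, each of 5 or 6 mice. For Cidea r was 0.70, 0.80, 0.32 and 0.42 on slides 1 to 4, and for Lpl 0.33, 0.85, 0.31 and 0.43. With group and slide means both removed, r was 0.62 for Cidea and 0.51 for Lpl (permutation adjusted p = 0.00546 and 0.0202). Pnpla2 had r = 0.68 there (permutation adjusted p = 0.00546), against 0.12 with group means alone removed, and Pparg stood at 0.36. Mice were permuted within groups and not within slides. These p-values therefore do not allow for the removal of slide means and can be too small.

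**Figure D4:**
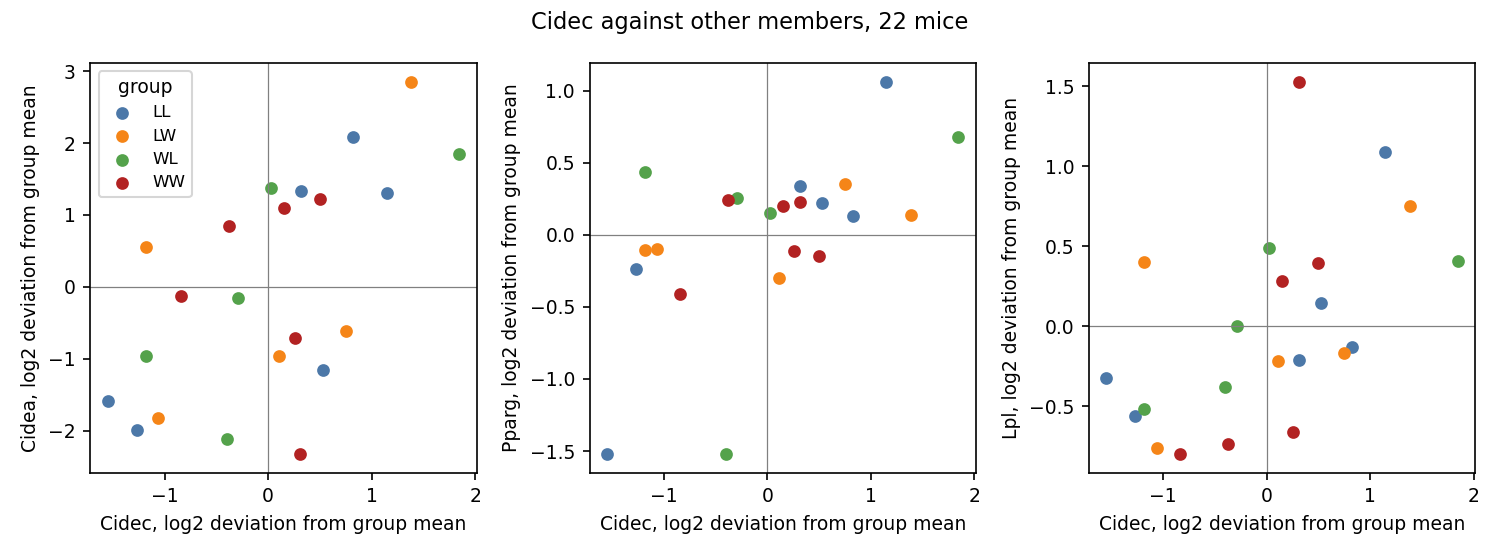
Deviation of Cidea, Pparg and Lpl from the group mean (log2, vertical) against that of Cidec (log2, horizontal) in 22 mice coloured by group. Cidea (r = 0.61), Pparg (r = 0.56) and Lpl (r = 0.55) tend to follow Cidec, and the 2 lowest Pparg points, LL replicate 1 and WL replicate 5, stand apart from the rest.

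As a description, the genes whose level over the 22 arrays was most like that of each variable gene were found among the named genes tested. For Cidea these were Scamp5 (r = 0.91), Galnt10 (0.86) and Bhlhb9 (0.85). For Cidec they were Snhg18 (0.88), Uap1l1 (0.86) and Gprc5b (0.86), and for Pparg Lgals1 (0.93), Cmc1 (0.91) and Ntpcr (0.89). Lpl was most like Ear2 (0.95), Sirpa (0.94) and Icam1 (0.92). G0s2 had lower values, its nearest being Ccn1 (0.68), Gemin7 (0.68) and Strbp (0.67). These values take in group differences, depth and slide, which all the genes of an array share.

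Around these genes, 5 lists of the same biology were read in the average over dam diets. Of 20 genes of the droplet coat and its assembly, 16 were tested, with 1 higher and 1 lower, where 2.71% of all genes passed. At an unadjusted limma p under 0.05 the list had 6 of 16, beside 20.05% of all genes. Fitm1, which partitions triglyceride into droplets, rose by 1.33 ± 0.26 (2.51-fold, limma adjusted p = 0.00738), with 5 of 5 LW mice above the LL mean and 5 of 6 WW mice above the WL mean. Plin5, a droplet coat protein that ties droplets to mitochondria, fell by 0.56 on the log2 scale (SE 0.15, limma adjusted p = 0.037). Plin4 stood at 1.07 ± 0.35 (limma adjusted p = 0.0849), with WL replicate 5 at 6.39 where the other WL mice lay at 9.02 or above, and Plin2, the main droplet coat protein of hepatocytes, at -0.42 ± 0.17 (0.157). The list median was -0.08, beside 0.00 for all genes, with 6 of 16 differences positive.

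Of 20 genes of glycerolipid synthesis 18 were tested, with 0 higher and 1 lower, where 2.71% of all genes passed. At an unadjusted p under 0.05 the list had 4 of 18. Acsl1, which activates fatty acids to acyl-CoA, fell by 0.64 on the log2 scale (SE 0.14, limma adjusted p = 0.0141), with 5 of 5 LW mice below the LL mean and 6 of 6 WW mice below the WL mean. Gk (-0.48 ± 0.14) and Gpat4 (-0.30 ± 0.09) did not pass (limma adjusted p = 0.0622 and 0.0658). Of 20 genes of triglyceride hydrolysis 11 were tested and limma called 0, with 3 at an unadjusted p under 0.05, Ces3b at -0.73 ± 0.21 having the smallest p (limma adjusted p = 0.0568). Of 18 partners of lipoprotein lipase and genes of fatty acid entry 15 were tested and limma called 0, with 5 at an unadjusted p under 0.05 and the VLDL receptor gene Vldlr at 0.70. The share of all genes at such a p was 20.05%, and the share that passed was 2.71%. These 3 lists had medians of -0.02, -0.10 and -0.01.

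Of 31 partners and target genes of PPAR-gamma 23 were tested, with 1 higher and 2 lower, where 2.71% of all genes passed. At an unadjusted limma p under 0.05 the list had 11 of 23, beside 20.05% of all genes. Cfd, the adipocyte protease adipsin, rose by 2.30 ± 0.59 (4.94-fold, limma adjusted p = 0.0345), and the 2 lower genes were Acsl1 and Plin5, which the other lists also hold. Pck1 (-0.76 ± 0.23, limma adjusted p = 0.075) did not pass. The list median was -0.03, and 9 of 23 differences were positive. In the other 6 comparisons limma called 0 of the 75 list genes tested, with between 6 and 18 at an unadjusted p under 0.05. With slide as a fixed block the calls of Fitm1 (1.05) and Acsl1 (-0.60) were kept, and those of Plin5 (limma adjusted p = 0.074) and Cfd (0.074) were not.

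**Figure D5:**
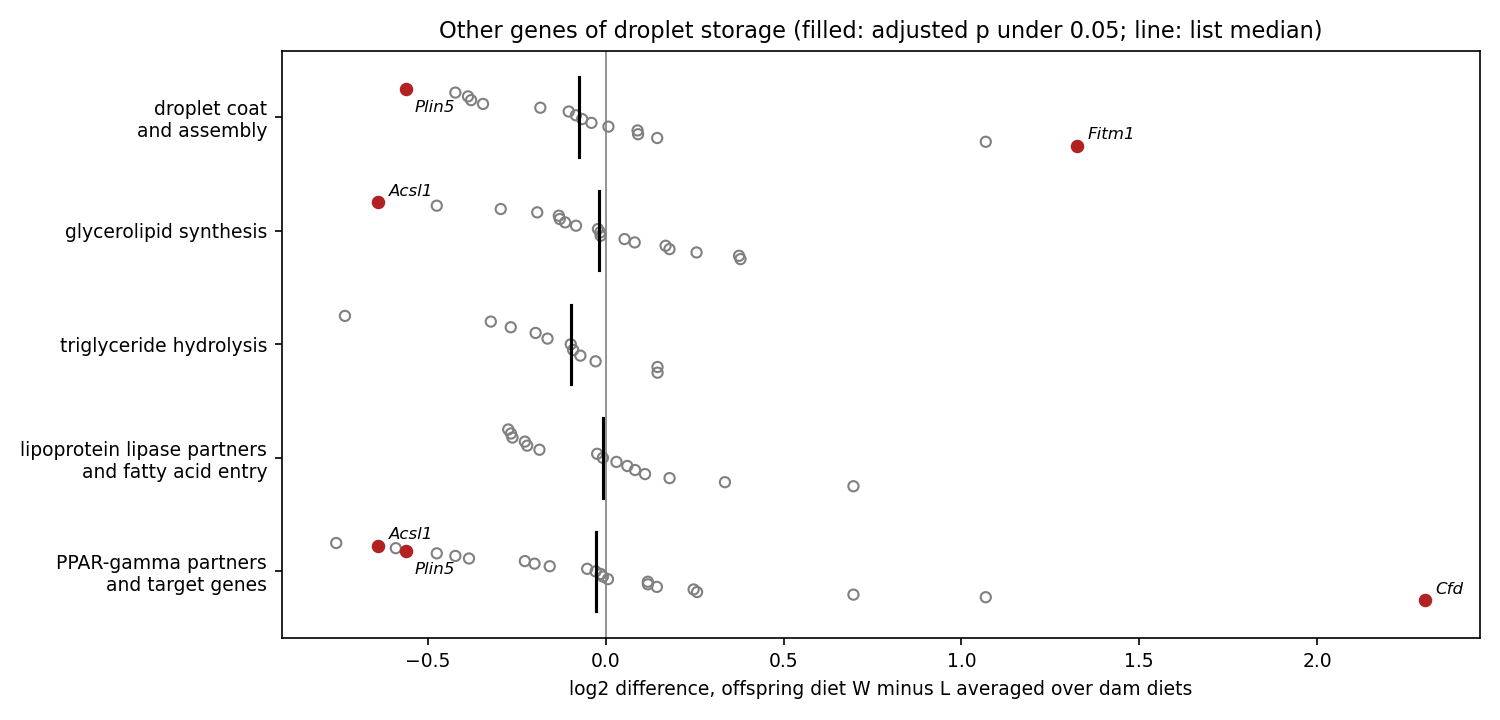
Differences of the tested genes of 5 lists (log2, W-fed minus L-fed sons averaged over dam diets), 1 point per gene, with filled points for genes that passed and a bar at the list median. Fitm1 (1.33) and Cfd (2.30) lie to the right, Plin5 (-0.56) and Acsl1 (-0.64) to the left, and every median lies near 0.

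Markers of fat tissue were read beside these genes, since Cidea, Cidec, Pparg and Cfd are all made by fat cells. Plin1 was detected on 0 of 22 arrays, and Adipoq and Retn on 1 array each, both of LL, so none of these 3 was detected in any W-fed mouse. Lep and Lipe were detected on 15 arrays each at low levels, and Cfd on 20. The summed intensity of the 6 white fat markers was carried by Cfd and ran from 75.0 to 520 in LL, 352 to 1217 in LW, 59.8 to 604 in WL and 63.4 to 2381 in WW. Of the brown fat markers Ucp1 and Dio2 were detected on 0 arrays and Zic1 on 1, while Elovl3, also made in liver, was detected on all 22 and fell by 1.58 on the log2 scale in W-fed sons (limma adjusted p = 0.000524). Of 6 exocrine pancreas markers, Cela1 was detected on all arrays and Amy2a5 on 0, and the other 4 were each highest in WL replicate 5. This mouse had Cela2a at 8.15 (5.61 or lower elsewhere), Pnlip at 5.80 (4.49 or lower), Cpa1 at 5.52 and Ctrb1 at 5.17, and the part of such RNA in its Pparg, Cidea, Fitm1 and Plin4 values was not tested. A probe that is not detected does not show that its RNA is absent, as the hepatocyte marker Tat was detected on 0 of 22 liver arrays. The part of fat cells in the Cidea, Cidec, Pparg and Cfd values was not tested.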

How the data were processed

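Liver RNA of 22 mice was read on Illumina BeadChips, 1 array per mouse, after biotin labelling, per the labels' protocols. The deposited non-normalized table gives an intensity and a detection p-value for each of 45281 probes, per the file headers, with 33.2% to 41.2% of probes per array below 0, so a background had been subtracted. The deposited series matrix holds normalized intensity values. How they were normalized is not given in the sources used here, and their centring is unknown. Each of its 22 columns (median 245) ranked best with its own array, and it served as an alternative. Slides were taken from the array barcodes in the labels.

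Background correction, quantile normalization and the log2 step were done with the neqc function (offset 16) of limma 3.58.1 in R 4.3.3. Table names matched 1 RefSeq gene (GRCm38.p6, used for names and promoter sequences) for 35713 probes (78.9%). The brightest probe of a gene was used among 14409 named probes that passed the detection filter, giving 9881 genes. Promoter windows were searched for 7 of the 10 genes. Entries on chromosome 18, where Cidea lies, were left out of the search, so no window of Cidea was read. Group means of all 22 arrays were fitted with lmFit and eBayes, and a gene passed if its adjusted p (Benjamini-Hochberg) was under 0.05. Array number limits precision, and differences near background are compressed. Functions were tested on simulated data.

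The members, lists and markers were chosen with earlier results of these data known. Named genes are the members, the 3 genes nearest to each variable member, list genes that were called or had up to the 3 smallest p of a list, and the cell type markers. Plin2, Vldlr and Pck1 were named after their values were seen. Alternatives were slide as a fixed or random block, the replicate number as a block, the deposited values, other filters, offset, normalization and probe rules, and leaving out mice.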

Additional observations from a re-analysis of the deposited data

Results flagged for a closer look

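In 4 of 52 groups of a gene checked (the 8 members and Fitm1, Plin4, Plin5, Acsl1 and Cfd, 4 groups each), 1 mouse stood far from the rest of its group, where chance alone flags about 1 in 20. In 3 of the 4 this was WL replicate 5, the low mouse of its group. Its Pparg was 6.66, and the nearest of the other WL mice was at 8.34. Its Fitm1 was 6.09, with the nearest at 7.88, and its Plin4 was 6.39, with the nearest at 9.02. The same mouse had the lowest Cidea of WL (4.55), at background, and was the only WL mouse on slide 4. It also had the highest values of the study for the exocrine pancreas genes Cela2a (8.15), Pnlip (5.80), Cpa1 (5.52) and Ctrb1 (5.17), whose part in these values was not tested. Without it the difference of Pparg in WW against WL was 0.64 in place of 1.02, and the average of Fitm1 over dam diets was 1.12 with the call kept. The 4th was LL replicate 6, whose Acsl1 was 12.33 with the nearest LL mouse at 11.91.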

How the results depend on the processing

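Under 11 alternatives other than leaving out 1 mouse, the averaged difference of Cidea kept its sign (0.83 to 2.56) and its call in 8, and that of Pparg kept its sign (0.41 to 1.17) and its call in 10. Of the 8 members, WW against WL called 3 with slide as a fixed block and with the deposited values. It called 2 with slide as a random block and with the replicate block, and 1 with the compared groups only. Of all 9881 genes, 316, 125, 122, 122 and 39 passed under these settings in that order, beside 47 in the main fit. The average over dam diets called 1 member with the deposited values, where 236 of all genes passed. It also called 1 without LL replicate 1 and WL replicate 5, where 208 passed. With no detection filter, which tests more genes, it called 0 members and 193 genes, beside 268 genes in the main fit.

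Over all genes, LW against LL called 24, and 5 with slide as a fixed block, 67 with the replicate block, 0 with the deposited values (limma), 7 with no filter, 15 with the mean of a gene's probes and 205 without LL replicate 1 and WL replicate 5. WW against WL called 47, and 316 with slide as a fixed block, 122 with it as a random block, 122 with the replicate block, 125 with the deposited values, 2 with no filter and 5 without those mice. WW against LW called 4 with slide as a fixed block and 1 with the replicate block, which gave 2 in WL against LL and 788 against 268 in the average over dam diets. The labels do not say that a replicate number marks anything shared. Deviations of same-numbered mice correlated with a median of 0.11 (-0.18 to 0.45) and those of other pairs with -0.0277. Of 22 mice, 10 correlated best with their own number, a hint from the data and not the design. Within each group the replicate numbers rise with the slide number, so some same-numbered mice share a slide. The part of slide in these correlations was not tested. With the replicate block Cidea and Cidec passed in WW against WL (limma adjusted p = 0.00478 and 0.0494). Causes were not tested.

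Signs reversed near 0. Slide as a fixed block gave -0.66 for Cidea and -0.0175 for Lpl in WL against LL and -0.11 for Pnpla2 in the average over dam diets. Slide as a random block gave -0.21 for Cidea for WL against LL and -0.0491 for Pnpla2 in the average over dam diets. The replicate block gave -0.0461 for Cidea in WL against LL, 0.0423 for Lpl in LW against LL and -0.0358 for the Pparg interaction. The deposited values gave -0.16 for Cidea and -0.00696 for Lpl in WL against LL, -0.0421 for Pnpla2 in the average over dam diets and 0.0011 for Dgat2 in that over the son's diets. Cyclic loess gave -0.0149 for Dgat2 in the average over dam diets. Without LL replicate 1 and WL replicate 5 the values were -0.0219 for the Pparg interaction, -0.0405 for Dgat2 in the average over dam diets and -0.00835 for Cideb in that over the son's diets.

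With each mouse left out in turn, calls ran from 4 (without LW replicate 5) to 87 (without LL replicate 1) in LW against LL, 3 (without WL replicate 5) to 81 (without WL replicate 2) in WW against WL, 136 (without WL replicate 5) to 524 (without LL replicate 1) in the average over dam diets, and 0 to 1 in WL against LL, WW against LW and the interaction. Members called ran from 0 (without WW replicate 2, where 142 of all genes passed) to 2 in the average over dam diets and 0 to 1 in WW against WL. Fitm1 and Acsl1 kept their call in 22 of 22 cases, Cidea in 20, Pparg in 19, Cfd in 13 and Plin5 in 10. Ranges across 0 were -0.16 to 0.83 for Cidea and -0.0646 to 0.28 for Lpl in WL against LL, -0.31 to 0.0927 for Lpl in LW against LL, -0.16 to 0.0749 for G0s2 in WW against WL, -0.33 to 0.36 for the Pparg interaction, -0.0261 to 0.0532 for Pnpla2, -0.0283 to 0.0461 for Dgat2 and -0.0202 to 0.0431 for Cideb in the average over dam diets, and -0.0324 to 0.0356 for Dgat2 and -0.0276 to 0.0298 for Cideb in that over the son's diets. Of the 7 relations with Cidec 2 passed, and 1 without the 2 farthest mice. With slide means removed 3 passed, by a permutation that did not allow for slide.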
